A study of Mus musculus with 4 samples.

Results

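The genes examined were 8 that encode enzymes of haem biosynthesis, Alas1, Alas2, Alad, Uros, Urod, Cpox, Ppox and Fech, out of 21883 protein-coding genes. They were chosen by name as members of the pathway, and every symbol had an entry in the mm10 gene table. Sites enriched for Flag-tagged Nynrin were mapped at them by chromatin immunoprecipitation with a Flag antibody and sequencing (ChIP-seq). The cells were lineage-negative bone-marrow cells, that is, marrow depleted of cells with mature-lineage surface markers. They came from C57BL/6 mice aged 8 weeks with a 3xFlag-Nynrin transgene. The sources used here do not name the promoter that drives it. The series has 2 Flag ChIP libraries and 2 input libraries, all of this same genotype. The results rest on the peak list of each Flag ChIP library, named replicate 1 and replicate 2, and neither input library was analysed here. The labels do not state whether separate mice gave the replicates. Peaks are those of the authors' caller, and no untagged or control-antibody library was set against them. Peak lists measure no expression, so the cell type label could not be checked against marker genes.

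Haem is made by enzymes that act in turn in mitochondria and in the cytosol. The pathway starts in the mitochondrial matrix, where 5-aminolevulinate synthase joins glycine to succinyl-CoA. Alas1 encodes the form present in all tissues, whose production is repressed by haem, and Alas2 encodes the form of red cell precursors, whose translation depends on iron. Alad, Uros and Urod encode cytosolic enzymes that turn 5-aminolevulinate into coproporphyrinogen. Cpox and Ppox encode mitochondrial oxidases, and Fech encodes ferrochelatase, which inserts iron into protoporphyrin. The pathway runs in all cells and is greatly raised in developing erythroid cells, where factors of the GATA and Krüppel-like families control many of its genes.

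The start regions of the genes are shown first, because the peaks described next lie at or near them, and because that of Alas2 serves as the contrast without a peak. Each window holds 250 bases before the RefSeq start site and 50 from it on, read 5′ to 3′ on the gene's strand in GRCm38.p6, the assembly behind mm10. Where a gene had 2 annotated start sites, the window of the site nearest to the summits is given. The windows are Alas1 at chr9:106247905-106248204 (minus strand), Alas2 at chrX:150547167-150547466 (plus), Alad at chr4:62519860-62520159 (minus), Uros at chr7:133709246-133709545 (minus), Urod at chr4:116994364-116994663 (minus), Cpox at chr16:58669958-58670257 (plus) and Ppox at chr1:171281137-171281436 (minus). Capitals mark matches, on either strand, to the short motifs named in the next paragraph.
Alas1: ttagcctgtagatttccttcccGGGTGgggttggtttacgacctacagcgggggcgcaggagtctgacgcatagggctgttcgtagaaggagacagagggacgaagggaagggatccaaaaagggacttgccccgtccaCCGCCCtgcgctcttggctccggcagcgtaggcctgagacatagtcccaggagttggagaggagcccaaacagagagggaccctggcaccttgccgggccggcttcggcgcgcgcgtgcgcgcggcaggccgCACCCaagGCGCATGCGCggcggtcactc
Alas2: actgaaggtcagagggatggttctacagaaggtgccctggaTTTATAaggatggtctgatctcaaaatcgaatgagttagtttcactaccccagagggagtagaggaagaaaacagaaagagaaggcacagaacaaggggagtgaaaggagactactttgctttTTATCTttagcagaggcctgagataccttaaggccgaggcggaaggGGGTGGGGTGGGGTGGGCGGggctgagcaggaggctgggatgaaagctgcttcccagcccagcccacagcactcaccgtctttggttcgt
Alad: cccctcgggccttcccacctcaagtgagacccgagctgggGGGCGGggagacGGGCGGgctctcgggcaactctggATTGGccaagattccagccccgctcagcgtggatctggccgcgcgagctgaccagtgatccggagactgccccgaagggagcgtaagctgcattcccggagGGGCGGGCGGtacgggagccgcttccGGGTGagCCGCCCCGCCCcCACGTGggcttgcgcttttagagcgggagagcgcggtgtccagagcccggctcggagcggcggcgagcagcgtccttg
Uros: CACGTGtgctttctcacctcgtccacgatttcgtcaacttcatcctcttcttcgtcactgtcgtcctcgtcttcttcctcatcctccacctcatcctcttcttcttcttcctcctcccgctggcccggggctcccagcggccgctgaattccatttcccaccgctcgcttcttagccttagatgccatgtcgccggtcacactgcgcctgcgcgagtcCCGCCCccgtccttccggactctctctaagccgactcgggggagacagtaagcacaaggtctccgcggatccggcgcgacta
Urod: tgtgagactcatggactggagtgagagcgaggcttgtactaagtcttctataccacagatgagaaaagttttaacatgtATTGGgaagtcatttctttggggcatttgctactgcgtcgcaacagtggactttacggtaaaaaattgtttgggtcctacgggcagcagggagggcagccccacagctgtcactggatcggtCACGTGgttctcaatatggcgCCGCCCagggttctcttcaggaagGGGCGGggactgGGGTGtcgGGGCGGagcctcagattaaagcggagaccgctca
Cpox: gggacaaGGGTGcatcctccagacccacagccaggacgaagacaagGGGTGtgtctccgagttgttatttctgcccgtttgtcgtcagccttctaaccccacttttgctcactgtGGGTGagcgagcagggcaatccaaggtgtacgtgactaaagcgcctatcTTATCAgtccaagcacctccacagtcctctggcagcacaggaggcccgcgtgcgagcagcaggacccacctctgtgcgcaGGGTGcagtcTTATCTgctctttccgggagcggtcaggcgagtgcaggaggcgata
Ppox: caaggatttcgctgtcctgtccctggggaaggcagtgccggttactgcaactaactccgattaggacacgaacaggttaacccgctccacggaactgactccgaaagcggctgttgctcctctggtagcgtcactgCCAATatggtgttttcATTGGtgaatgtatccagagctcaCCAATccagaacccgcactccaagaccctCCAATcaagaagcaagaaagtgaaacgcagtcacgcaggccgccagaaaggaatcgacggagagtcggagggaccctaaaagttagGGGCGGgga

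The motifs were searched by exact letters, and each share is that of 32851 RefSeq windows of the same length that hold the motif. Windows of chromosome 18, where Fech lies, were left out. The GC box GGGCGG was in 6 of the 7 windows, all but that of Cpox, against 35.7% of all windows. The CACCC box, searched as GGGTG, was in 5 of 7 (Alas1, Alas2, Alad, Urod and Cpox), against 57.5%. The GATA motif AGATAA was in Alas2 and Cpox, against 11.2% of all windows, and its variant TGATAA was in Cpox alone, against 9.05%. In Alas2 the AGATAA match lay 86 bases before the start site, in the reverse orientation, and 3 consecutive GGGTG matches followed it, the last of which overlapped the GC box by 1 base. The E box CACGTG was in Alad, Uros and Urod, against 7.15% of all windows. CCAAT was in Alad, Urod and Ppox, against 37.4%, and Ppox held 4 copies of it. TATAAA was in Alas2 alone (13.6% of all windows), and the NRF1 core GCGCATGC was in Alas1 alone (2.71%), in both orientations that overlap each other. TGACGTCA, CCGGAAGT and TGACTCA were in none of the 7 windows and in 1.79%, 3.89% and 5.2% of all. A match here describes letters and does not show that a factor bound.

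The windows also differed in CpG content. The ratio of observed to expected CpG was 1.16 in Uros, 0.871 in Alad, 0.854 in Alas1, 0.768 in Ppox, 0.687 in Urod and 0.581 in Cpox, against a median of 0.384 over all windows. In Alas2 it was 0.318, and this was the only member window below that median. The Uros window also holds the start of the neighbouring gene Bccip, at 133709333 on the plus strand. Most bases of that window, with its E box, lie within Bccip, so its values belong to both genes.

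Of the 8 genes, 4 had a peak summit within 1000 bp of a gene end in both replicates: Alas1, Urod, Cpox and Ppox. The same rule was met by 31.9% of all protein-coding genes (6979 of 21883). Replicate 1 gave the same 4 genes, beside 32.6% of all genes, and no member was found in replicate 1 alone, as were 0.672% of all genes. Replicate 2 gave 6 members, beside 45.5% of all genes. The 2 added, Alad and Fech, were found in replicate 2 alone, beside 13.6% of all genes. Uros missed the rule, with summits 1320 and 1307 bp from its outermost end in replicates 1 and 2, while the farthest summit that met it as the nearest to its gene was that of Ppox in replicate 2, at 436 bp. Alas2 had no peak within 10 kb in either library. These counts describe 8 genes and carry no test.

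**Figure D1:**
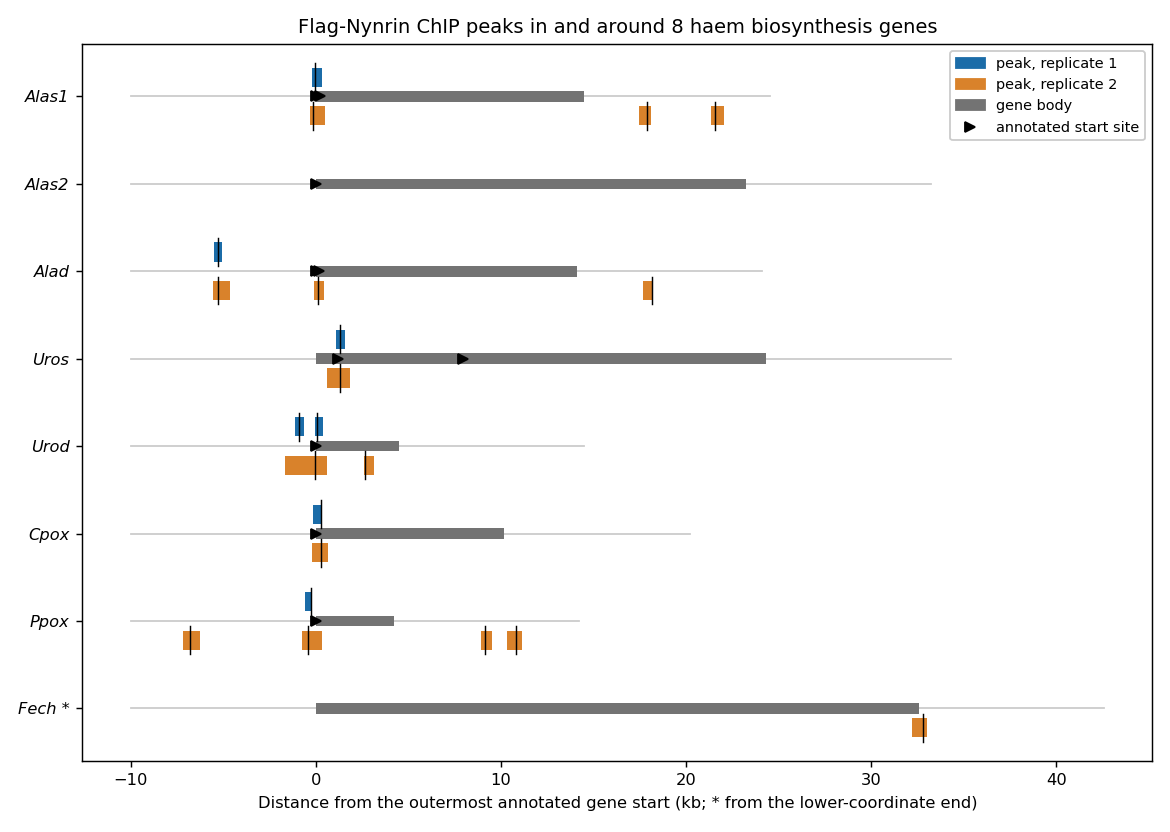
Peaks of replicate 1 (blue, above each gene) and replicate 2 (orange, below) in and within 10 kb of the 8 genes, with gene bodies in grey, annotated start sites as arrowheads and summits as black lines. The x axis is the distance in kb from the outermost annotated gene start, or for Fech from its lower-coordinate end. Peaks of both replicates sit at a start site of Alas1, Uros, Urod and Cpox. At Ppox the summits of both replicates lie upstream of the start site, which the replicate 1 peak does not reach. Alad has a peak at its start and Fech one at its higher-coordinate end in replicate 2 alone, and Alas2 has no peak in the range shown.

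The rule uses the outermost bounds of a gene. Measured instead from annotated start sites, a setting chosen after the values were seen, 5 of the 7 members with an entry had a summit within 1000 bp in both replicates, beside 34.5% of 17491 genes with an entry. Replicate 1 gave 5 (35.1% of such genes) and replicate 2 gave 6 (48.1%). Uros was the gene added, and it also met a window of 2000 bp around the gene ends, as did 35.1% of all genes in both replicates. Fech had no start site entry.

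Alas1 had a peak over its start in both replicates. The gene spans 106233455 to 106247954 on chromosome 9 on the minus strand. The replicate 1 peak ran from 106247628 to 106248177, with a fold enrichment of 3.23 and a −log10 q of 3.27. The replicate 2 peak ran from 106247452 to 106248270, with a fold enrichment of 5.92 and a −log10 q of 10.8. Fold enrichment is the authors' ratio of signal at the summit to the caller's background, and q is the caller's adjusted p. Because the depth of the libraries is unknown, sizes were ranked within each list and not set against each other. In replicate 1 the Alas1 peak stood at percentile 16.5 of all peaks by fold enrichment, and in replicate 2 at percentile 70.4. The summits lay 49 and 184 bp upstream of the outermost start site, at bases 202 and 67 of the window shown, and both peaks also covered a start site 224 bp further in.

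Replicate 2 had 2 further peaks beyond the 3′ end of Alas1. The peak from 106229853 to 106230491 had its summit 3400 bp from the gene and a fold enrichment of 4.25. The peak from 106225890 to 106226606 had its summit 7042 bp away, inside the Toll-like receptor gene Tlr9, and a fold enrichment of 3.99. Replicate 1 had no peak at either place.

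Alas2, the erythroid isoform gene at 150547417 to 150570622 on chromosome X, was the only member without a peak in its body or within 10 kb in both lists. Of all protein-coding genes, 38.8% were likewise without one in either list. The nearest summit was 446536 bp from a gene end in replicate 1 and 17308 bp in replicate 2, where it lay 276 bp from an end of Apex2. Chromosome X held 70 peaks in replicate 1 and 242 in replicate 2, and 4.97% of its 966 protein-coding genes had end summits in both replicates. A summit in the body or within 10 kb in either list was found for 25.2% of them. The sparse calls on this chromosome and the lack of an Alas2 peak occur together, and the part of the chromosome in that result was not tested.

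**Figure D2:**
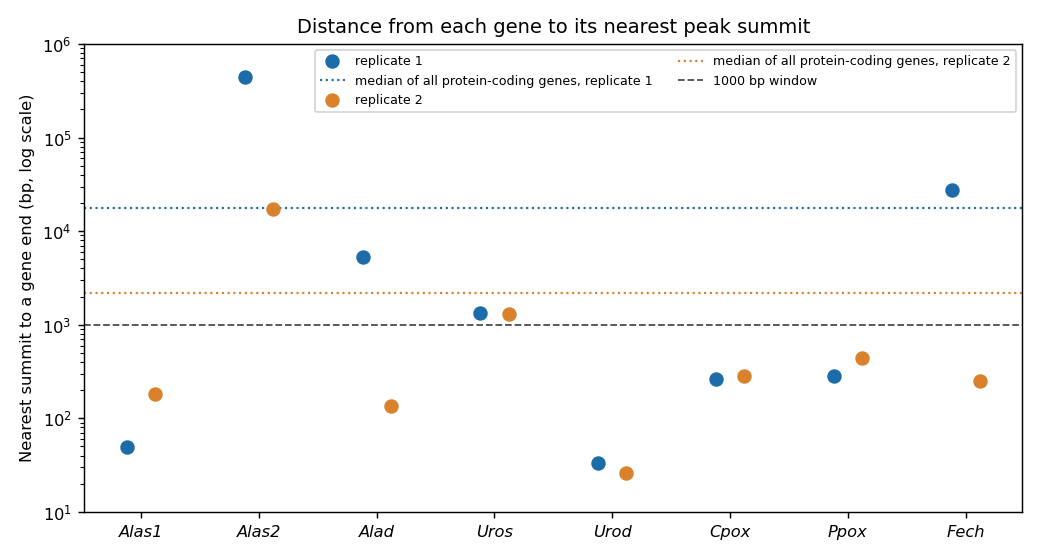
Distance in bp, on a log axis, from each gene to the nearest peak summit at either of its ends, for replicate 1 (blue) and replicate 2 (orange), with dotted lines at the median of all protein-coding genes (17858 and 2175 bp) and a dashed line at 1000 bp. Alas1, Urod, Cpox and Ppox lie under 1000 bp in both replicates and Alas2 lies far above it in both.

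The cytosolic enzyme genes differed from each other. Alad, at 62505984 to 62520063 on chromosome 4 on the minus strand, encodes the enzyme that condenses 5-aminolevulinate to porphobilinogen. It had a peak at its start in replicate 2, from 62519647 to 62520159, with a fold enrichment of 4.25 and a −log10 q of 4.76, at percentile 40.1 by fold enrichment. The summit lay 17 bp upstream of the inner of its 2 annotated start sites, which are 154 bp apart, and the peak covered both. Mouse Alad is known for separate housekeeping and erythroid first exons, and the peak is too wide to be assigned to either start site. Replicate 1 had no peak there, and its nearest summit was 5265 bp from the gene.

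That upstream summit, found in both replicates, was at the ends of other genes. It lay 24 bp in replicate 1 and 37 bp in replicate 2 from the start of 4933430I17Rik, and within 1000 bp of the DNA polymerase subunit gene Pole3, which runs the other way. Its fold enrichment was 2.71 in replicate 1 (62525162 to 62525557) and 9.57 in replicate 2 (62524714 to 62525635). By rank it stood at percentile 3.83 of the 12702 peaks of replicate 1 and at percentile 93.2 of the 25787 peaks of replicate 2. Ranks in lists of such different lengths show no change between the libraries. On the other side, replicate 2 had a peak from 62501837 to 62502394, 4090 bp from Alad and 306 bp from an end of Hdhd3, with a fold enrichment of 3.99.

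Uros had the strongest peaks at its own start site. The gene, which spans 133686142 to 133710467 on chromosome 7 on the minus strand, encodes uroporphyrinogen III synthase, the enzyme that closes the tetrapyrrole ring. The replicate 1 peak ran from 133708884 to 133709396, with a fold enrichment of 5.67 and a −log10 q of 13.7. The replicate 2 peak ran from 133708647 to 133709855, with a fold enrichment of 10.9 and a −log10 q of 28.3. These values stood at percentiles 87.0 and 96.7 of their lists. The summits were 13 bp apart, and lay 148 and 135 bp downstream of a Uros start site that is 1172 bp inside the outermost bound.

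The same peaks lie at the start of Bccip, a gene for a BRCA2-interacting protein that runs in the opposite direction from a start site 38 bp from that of Uros. The summits were 186 and 173 bp from the start of Bccip, so the peak cannot be assigned to either gene from its position. Uros has a further annotated start site 6795 bp downstream of the one under the peak. Mouse Uros is known for a separate downstream erythroid promoter, though the table does not say which start site is which. The nearest summits were 6647 and 6660 bp from that inner start site in replicates 1 and 2, and neither list had a peak over it.

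Urod, which encodes uroporphyrinogen decarboxylase, spans 116989965 to 116994436 on chromosome 4 on the minus strand. Replicate 1 had separate peaks at Urod and at its neighbour Hectd3, a ubiquitin ligase gene that starts 921 bp away on the other strand. The Urod peak, from 116994037 to 116994471, had a fold enrichment of 2.81 and a −log10 q of 3.27, with its summit 10 bp downstream of the start site, at base 261 of the window shown. The Hectd3 peak, from 116995066 to 116995579, had a fold enrichment of 5.35 and a −log10 q of 9.17, with its summit 54 bp from Hectd3 and 914 bp from Urod. In rank they stood at percentiles 6.12 and 82.9 of the list, so the stronger of the pair was the one nearer to Hectd3.

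In replicate 2 a single peak of 2269 bp, from 116993853 to 116996121, covered both replicate 1 peaks. It was wider than 97.3% of the peaks of its list, counted with ties, and had a fold enrichment of 5.24 and a −log10 q of 9.05. Its summit was on the Urod side, 49 bp upstream of the Urod start site at base 202 of the window. A further replicate 2 peak lay inside the gene, from 116991298 to 116991830, with a fold enrichment of 3.99.

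The genes of the mitochondrial steps after the cytosolic ones are Cpox, Ppox and Fech. Cpox, which encodes coproporphyrinogen oxidase, spans 58670208 to 58680391 on chromosome 16 on the plus strand, and its nearest neighbouring gene end is 31805 bp away. Its replicate 1 peak, from 58670044 to 58670502, had a fold enrichment of 2.48 and a −log10 q of 1.32, where the lowest value of the list is 1.31. Its replicate 2 peak, from 58670000 to 58670839, had a fold enrichment of 4.52 and a −log10 q of 5.49. The summits were 18 bp apart, 264 and 282 bp downstream of the start site. By fold enrichment the peaks ranked at percentiles 1.18 and 47.2 of their own lists.

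Ppox, which encodes protoporphyrinogen oxidase, spans 171276991 to 171281193 on chromosome 1 on the minus strand. The replicate 1 peak, from 171281426 to 171281786, had a fold enrichment of 2.60 and a −log10 q of 2.42. The replicate 2 peak, from 171280847 to 171281974, had a fold enrichment of 6.77 and a −log10 q of 14.9. They ranked at percentiles 2.31 and 78.0 of their lists. The summits lay 293 and 443 bp upstream of the Ppox start site, outside the window shown. They were also 470 and 320 bp from the 3′ end of Usp21, a deubiquitinase gene on the same strand, so the replicate 2 summit was nearer to Usp21 than to Ppox. The replicate 1 peak did not reach the Ppox start site, and the replicate 2 peak covered it.

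Replicate 2 had 3 more peaks within 10 kb of Ppox. The peak from 171287481 to 171288349 had a fold enrichment of 8.77, with its summit 34 bp from the start of Usp21. The peak from 171270083 to 171270850 had a fold enrichment of 9.83, with its summit 79 bp from the start of the galactosyltransferase gene B4galt3. The peak from 171271674 to 171272279 had a fold enrichment of 4.78 and lay inside B4galt3. Replicate 1 had no peak at these places, although the first 2 were at percentiles 90.0 and 94.1 of replicate 2.

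Fech, the gene of the final enzyme, spans 64456542 to 64489098 on chromosome 18. Replicate 2 had a peak from 64488742 to 64489545, with a fold enrichment of 5.82 and a −log10 q of 10.6, at percentile 67.9. Its summit was 251 bp outside the higher-coordinate end of Fech, and the next gene, Nars, was 10306 bp from it. Replicate 1 had no peak within 10 kb, and its nearest summit was 27446 bp from Fech and 29 bp from Nars.

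**Figure D3:**
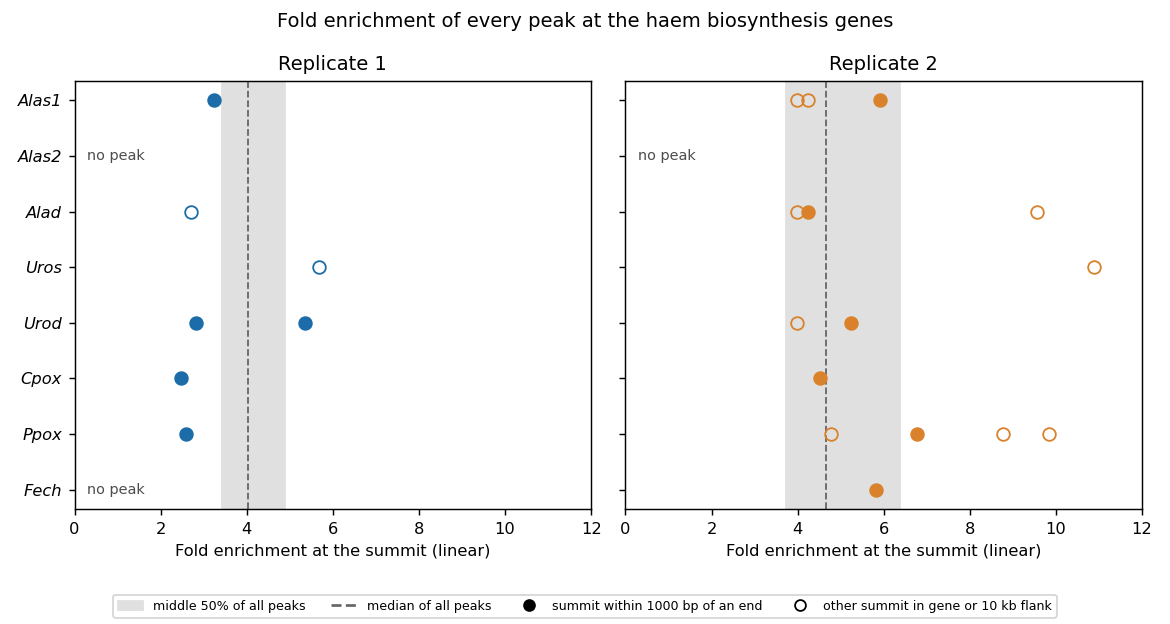
Fold enrichment at the summit (linear, x axis) of every peak in or within 10 kb of the 8 genes, in replicate 1 (left) and replicate 2 (right). Filled circles are summits within 1000 bp of a gene end, open circles are others, the grey band is the middle 50% of all peaks in the list and the dashed line is their median (4.04 and 4.66). In replicate 1 the filled circles are left of the median apart from the Hectd3-side peak of Urod at 5.35, and the highest value in each panel is the peak over the Uros and Bccip starts.

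Across the 8 loci, replicate 1 had 7 peaks and replicate 2 had 15. All 7 of replicate 1 overlapped a replicate 2 peak, beside 89.2% of all replicate 1 peaks. Of the 15 in replicate 2, 6 (40%) overlapped a replicate 1 peak, beside 41.8% of all replicate 2 peaks. The replicate 2 list holds 25787 peaks and that of replicate 1 holds 12702, and this difference in length limits the replicate 2 shares. The summits of the 7 shared sites were a median of 59 bp apart, with a range of 13 to 888 bp, beside a median of 120 bp over all 11327 shared peaks. The largest distance came from the Hectd3 peak, which replicate 2 did not separate from that of Urod. By outermost gene ends, 3 of 7 summits in replicate 1 and 9 of 15 in replicate 2 were nearer to an end of another gene than to an end of the member. These include the Uros summits, which lay inside Uros and were nearer to its annotated start site than to Bccip.

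With any summit in the gene body or within 10 kb counted, 6 members had one in both replicates, beside 46% of all genes. The count was 6 in replicate 1 (46.5% of all genes) and 7 in replicate 2 (60.8%). The median distance from a member to its nearest summit was 803 bp in replicate 1 and 266.5 bp in replicate 2, beside 17858 and 2175 bp over all protein-coding genes.

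The fold enrichment of end peaks was then described for the members that met the 1000 bp rule, which leaves out Uros. Taking the strongest end peak of each gene, the median fold enrichment in replicate 1 was 2.91 over the 4 members with one, and 4.28 over all genes with one. In replicate 2 it was 5.53 over 6 members and 6.91 over all such genes. None of the 6 members exceeded that replicate 2 median, and Urod alone exceeded the replicate 1 median, through the peak at Hectd3. The Uros peaks, at 5.67 and 10.9, were above both medians. These differences were not tested. When a −log10 q of at least 5 was required in both lists, Urod alone of the 8 kept its call, again through that peak, beside 21.1% of all genes. Alas1, Cpox and Ppox fell out because of their replicate 1 values. Without summits near the ends of several genes, Urod and Ppox were not called and Alas1 and Cpox were, beside 21.6% of all genes.

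By the lower of its 2 percentile ranks among end peaks, Urod was the highest of the ranked members, at 76.5 in replicate 1 and 25.4 in replicate 2. The replicate 1 rank is that of the peak at Hectd3, as the peak at the Urod start had a fold enrichment of 2.81. Uros, which missed the 1000 bp rule, was not ranked. Over these 2 libraries the genes nearest to Urod in rank were Hectd3, which has the same peaks, and the pair Cope and Ddx49, at a distance of 0.966 percentile points. With only 2 libraries, such likeness says little.

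The enzymes were then set beside 43 genes of haem transport, haem breakdown and sensing, iron-sulphur assembly and iron handling, a list drawn up from textbook roles. Of these, 29 had an end summit in both replicates, 1 in replicate 1 alone, 8 in replicate 2 alone and 5 in neither, beside 31.9% of all genes in both. The difference from the enzymes was not tested.

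Of 11 transport genes, 7 were called in both replicates. The highest ranking were Slc25a38, the mitochondrial glycine carrier that feeds haem synthesis (fold enrichment 6.09 in replicate 1 and 9.03 in replicate 2), and Slc25a28, the widely expressed mitochondrial iron importer mitoferrin-2 (4.20 and 11.7). Slc25a37, which encodes the erythroid importer mitoferrin-1, had none, and its nearest summits were 447158 and 422019 bp away. Tmem14c and Flvcr2 were among the genes with end summits in replicate 2 alone.

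Of 9 genes for haem breakdown, sensing and haem a synthesis, 6 were called in both. The highest ranking were Blvrb, a biliverdin reductase gene (5.78 and 11.2, with its neighbour Sptbn4 at the same summits), and Clpx, a mitochondrial protease subunit gene whose product acts on 5-aminolevulinate synthase (4.77 and 9.03). Eif2ak1, the haem-regulated kinase that slows translation when haem is short, had 2.69 and 5.94. Hmox1, the inducible haem oxygenase gene, and Blvra and Cox10 had summits in replicate 2 alone, that of Blvra shared with its neighbour Ap4e1.

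Of 11 iron-sulphur cluster genes, 9 were called in both, led by the ferredoxin reductase gene Fdxr (6.01 and 14.5) and by Isca1 (5.39 and 12.2). Fdx2 had a summit in replicate 2 alone, shared with its neighbour Raver1, and Fdx1 had none. Of 12 iron genes, 7 were called in both, led by Pcbp2 (7.50 and 12.5) and Pcbp1 (6.14 and 11.2), whose RNA-binding products also serve as iron chaperones. Slc11a2 met the rule in replicate 1 alone, with a summit at 961 bp, and its nearest summit in replicate 2 was at 1077 bp. The ferritin heavy chain gene Fth1 had a summit in replicate 2 alone, shared with its neighbour Best1. The remaining iron genes, Steap3, Ireb2 and Slc40a1, had none within 1000 bp in either, with Ireb2 at 1072 and 1121 bp and Slc40a1 at 1251 and 1016 bp.

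**Figure D4:**
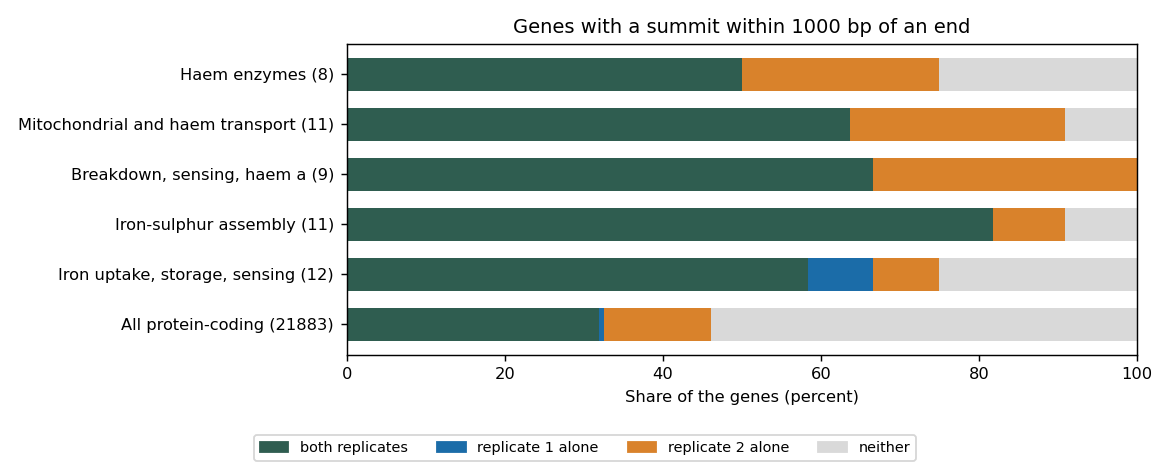
Share in percent of each gene group with a peak summit within 1000 bp of a gene end in both replicates (green), in replicate 1 alone (blue), in replicate 2 alone (orange) or in neither (grey), with the number of genes in brackets. The bars for both replicates stand for 4 of 8 haem enzymes, 7 of 11, 6 of 9, 9 of 11 and 7 of 12 genes of the related groups, and 6979 of 21883 protein-coding genes.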

How the data were processed

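Per the labels' protocols, fixation was with 1% formaldehyde for 10 min, and 10 ng of DNA went through 16 amplification cycles. Per the submitters' processing notes, tools included Bowtie2 and MACS2, and the build was mm10. The control and cutoff of peak calling are not given in the sources used here. Peak names show that the authors called each library separately. Fold enrichment, as deposited, is a ratio on a linear scale, and the deposited −log10 p and −log10 q are the caller's. The deposited score is 10 times the −log10 q without its decimals, and it and the −log10 p were left aside. In replicate 2, 1490 peaks had the fold enrichment printed as 3.99, and ties share a mean rank. Depth is unknown.

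Peaks of the assembled chromosomes other than mitochondrial were kept, 12702 in replicate 1 and 25787 in replicate 2. The summit is the start plus the summit offset, given 1-based. Gene bounds and start windows are from RefSeq GRCm38.p6, and all 8 members and 43 related genes matched by symbol. Peaks were shared when they overlapped by at least 1 bp. Members and lists were chosen with earlier results of these data known, so no test was run. Named genes were all members, genes next to their summits, the 3 genes nearest in rank to the highest member, and in each related group the 2 highest ranking and those found in 1 replicate alone. Other related genes were named after their values were seen, and a gene that the rule selects is not reported here. The procedures were tested on simulated data. Python 3.11.15, numpy 2.4.6, pandas 2.3.3 and matplotlib 3.10.9 were used. Alternatives changed the window, peak threshold, list length, replicates, overlap rule and gene ends.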

Additional observations from a re-analysis of the deposited data

How the results depend on the processing

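The count of 4 enzyme genes called in both replicates (31.9% of all genes) was 1 with −log10 q of at least 5 (21.1%), 1 with fold enrichment of at least 5 (9.52%), and 2 without summits near several genes (21.6%). The other alternatives gave 3 to 5 (27.9 to 36.8% of the genes evaluated). Leaving out a replicate gave 4 to 6 (32.6 to 45.5% of all genes). The count of 29 related genes was 18 and 7 under these thresholds, with the same shares of all genes, and leaving out a replicate gave 30 to 37. Without summits near several genes, 21 related genes were called (21.6% of all genes). The count of 6 enzyme genes with a summit in the gene or within 10 kb (46% of all genes) was 2 with the −log10 q threshold (32.2%), 2 with the fold enrichment threshold (16.1%) and 3 in gene bodies alone (22.3%), and leaving out a replicate gave 6 to 7 (46.5 to 60.8%). The peaks with a partner at these loci were 7 in replicate 1 and 6 in replicate 2 (89.2% and 41.8% of all peaks). When overlap had to cover 50% of both peaks, 2 in each list had a partner (47.1% and 23.2% of all peaks). With lists cut to equal length by −log10 q, 6 in replicate 1 and 5 in replicate 2 had a partner (73.4% and 68.9% of all peaks kept). With −log10 q of at least 5, 2 in each had one (92.0% and 38.4% of all peaks kept). In replicate 1 the Uros and Hectd3 peaks alone met that threshold, and both kept a partner. The thresholds leave fewer peaks by construction. Annotated start sites and a 2000 bp window were alternatives chosen after seeing the data, and each gave 5 enzyme genes. Under start-based settings Fech was not evaluated. No paired analysis was possible because the result comes from no test. Without read counts, neither the depth of each library nor the precision of a fold enrichment is known, and a site absent from the shorter list of replicate 1 is not shown to be unbound.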
